A study of Drosophila melanogaster with 4 samples.

Results

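The narrow H3K4me3 regions of the fly head were enriched regions less than 2200 bp wide that were found in both ChIP replicates and stood apart from other enriched regions. They were chosen by 4 criteria on the authors' lists. A region of the combined list, which belongs to the set of both replicates, had to have a score above 0 and a width below 2200 bp. It also had to overlap a region of each replicate by at least 1 bp and to lie at least 500 bp from the nearest other enriched region on the same sequence. These criteria were met by 385 of 4979 enriched regions, or 7.73% (exact 95% confidence interval 7.01 to 8.51%). Together they held 761 kb, or 3.98% of the bases in enriched regions. Width, score and distance were therefore either used by the choice or come from the same immunoprecipitations, and they are given as descriptions with no test.

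The chromatin came from heads of wild-type adult fruit flies (Drosophila melanogaster) of the laboratory strain Oregon-R, at a stage labelled Mixed Adult. The flies were reared in population cages and the heads were collected with sieves, so that each sample pools many animals and all cell types of the head, and the labels name the material head nuclei. An antibody against H3K4me3 (ab8580 lot 2) was used in 2 ChIP replicates, and each ChIP had an input sample, for 4 samples in all and no other genotype, treatment or tissue. Whether the replicates stem from separate fly cultures is not stated, so the spread between them may be technical. Sequencing depth is unknown, as no list gives counts of reads. In such a mixture a weak mark in many cells and a strong mark in few cells cannot be told apart.

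H3K4me3 is histone H3 with 3 methyl groups on lysine 4, and it marks nucleosomes around the start sites of active genes. In flies it is placed mainly by the Set1 methyltransferase complex, with Trithorax and its relative Trr as further methyltransferases of this lysine, and the demethylase Lid removes it. Proteins with PHD fingers, among them subunits of the general transcription machinery, bind the mark. The head holds chiefly neurons, glia, photoreceptors, muscle and fat body, which use partly different sets of genes. Genes at the regions were not assigned, because positions in the lists follow FlyBase release 5, while the only gene table at hand follows release 6.

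The median width of narrow regions was nearly the same in both replicates, as was that of the whole replicate lists (3151 and 3148 bp). Single narrow regions differed in width between the replicates by a median of 120 bp. Each of the 385 matched exactly 1 region in replicate 1 and 1 in replicate 2, and none of these was shared with another combined region, which was so for 3911 of the 4090 other enriched regions found in both replicates (95.6%). Their median width was 1865 bp in replicate 1 (interquartile range 1638 to 2004 bp, lowest 1301, highest 2673 bp) and 1850 bp in replicate 2 (1669 to 2000 bp, lowest 1312, highest 2245 bp). The mean of these medians was 1857.5 bp ± 10.6 (SD, n = 2). In the combined list the median was 2004 bp, with an interquartile range of 1867 to 2106 bp, and the narrowest region measured 1483 bp. The combined region was wider than the region of replicate 1 in 356 of 385 cases and wider than that of replicate 2 in 365, by a median of 125 bp and 137 bp. These counts were not made for other regions, but the widening was not particular to narrow ones. Against the mean width of the replicates, its median was 194.75 bp below 1800 bp and 132 bp from 1800 bp to the bound. In wider classes, also at least 500 bp from a neighbour, the medians ran from 64.75 bp (2600 to 3000 bp) to 141.25 bp (7000 bp or more). In 380 of 385 cases the regions of both replicates were also below 2200 bp, which largely follows from this widening.

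**Figure D1:**
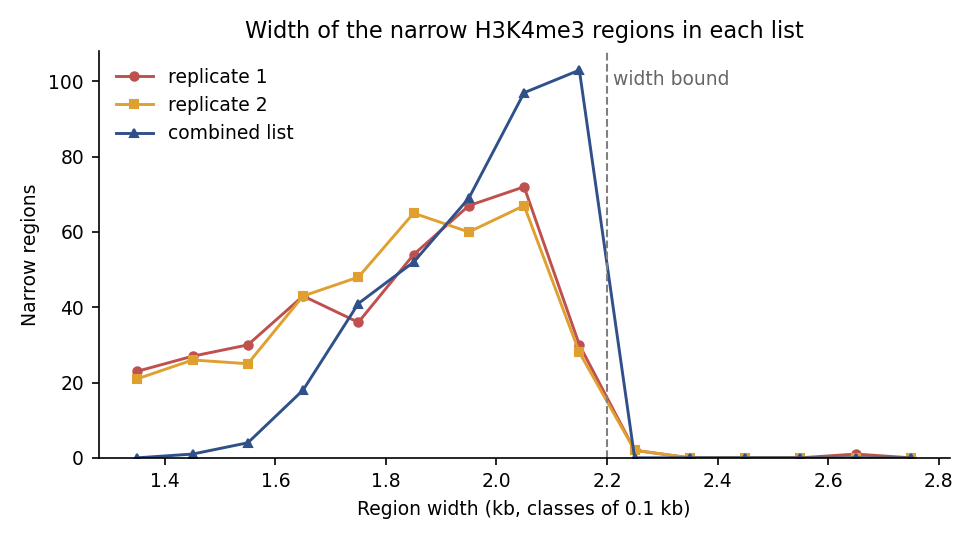
Number of narrow regions (y axis) by width in classes of 0.1 kb (x axis) in replicate 1 (circles), replicate 2 (squares) and the combined list (triangles), with the width bound as a dashed line. The replicates follow each other, with medians of 1865 and 1850 bp, while the combined list has its most numerous class, 103 regions, just below the bound.

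The number of narrow regions depended on where the width bound was placed, since the class just below it was the fullest. In the combined list 103 regions were 2100 to 2199 bp wide, 97 were 2000 to 2099 bp, 69 were 1900 to 1999 bp, and 5 were below 1600 bp. The regions just inside the bound lay on 2L at 19027094 to 19029291, on 2R at 8965503 to 8967700 and on 3L at 11197792 to 11199989. Each was 2198 bp wide, and their scores were 0.50, 0.58 and 0.71. Just outside it, with all other criteria met, were a region of 2201 bp on 3L at 11062854 to 11065054 (score 0.64) and regions of 2202 bp on 3R at 8786057 to 8788258 (1.13) and 20695137 to 20697338 (0.75). No gap in width separated the regions on either side of the bound. At the distance bound, the nearest inside were on 3R at 18542412 to 18544053, with 588 bp to the next region, on 3R at 4805732 to 4807811 (600 bp) and on 2R at 18288142 to 18290167 (661 bp). Just outside it were regions on 2L at 3468661 to 3470799 (457 bp), on X at 13024788 to 13026668 (444 bp) and on 2R at 3524045 to 3525932 (379 bp).

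Narrow regions carried a weak signal. The authors' score, of which neither the scale nor a log base is known here, had a median of 0.40 in the combined list (interquartile range 0.30 to 0.52), against 1.88 for the other enriched regions (1.14 to 2.28). A median narrow region thus stood at percentile 11.4 of all enriched regions by score. In the replicates the median scores of narrow regions were 0.50 in replicate 1 and 0.46 in replicate 2, a mean of 0.48 ± 0.03 (SD, n = 2), against 2.02 and 1.96 for the regions of each replicate matched to the other enriched regions. The combined score lay below that of replicate 1 in 336 of 385 cases and below that of replicate 2 in 299. This count was not made for the other regions. Over all 4979 enriched regions the median combined score was 1.78. Those matched in replicate 1 (4594) and in replicate 2 (4597) had median replicate scores of 1.94 and 1.89. Only the combined median includes regions without a match, so these medians give no background for the counts. Because it is not known here how the replicates were combined, scores were compared only within a list or side by side.

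Within the narrow regions, width and score went together above 1600 bp. The median score was 0.20 for regions of 1600 to 1699 bp, 0.23 for 1700 to 1799 bp, 0.29 for 1800 to 1899 bp, 0.34 for 1900 to 1999 bp, 0.44 for 2000 to 2099 bp and 0.55 for 2100 to 2199 bp. The lowest score was 0.03 at 1600 to 1699 bp, 0.20 at 1900 to 1999 bp and 0.38 at 2100 to 2199 bp. The 5 regions below 1600 bp did not follow this order, with a median of 0.30 and a lowest score of 0.14. Over all 385 regions Spearman's rho between width and score was 0.84 and Pearson's r was 0.62. The corresponding rho was 0.54 over 4090 other regions found in both replicates. In the replicates' own lists it was 0.62 in replicate 1 and 0.63 in replicate 2 for narrow regions, and 0.60 and 0.59 for the others. These coefficients are across regions of 1 list, which share their libraries, and they serve as descriptions.

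**Figure D2:**
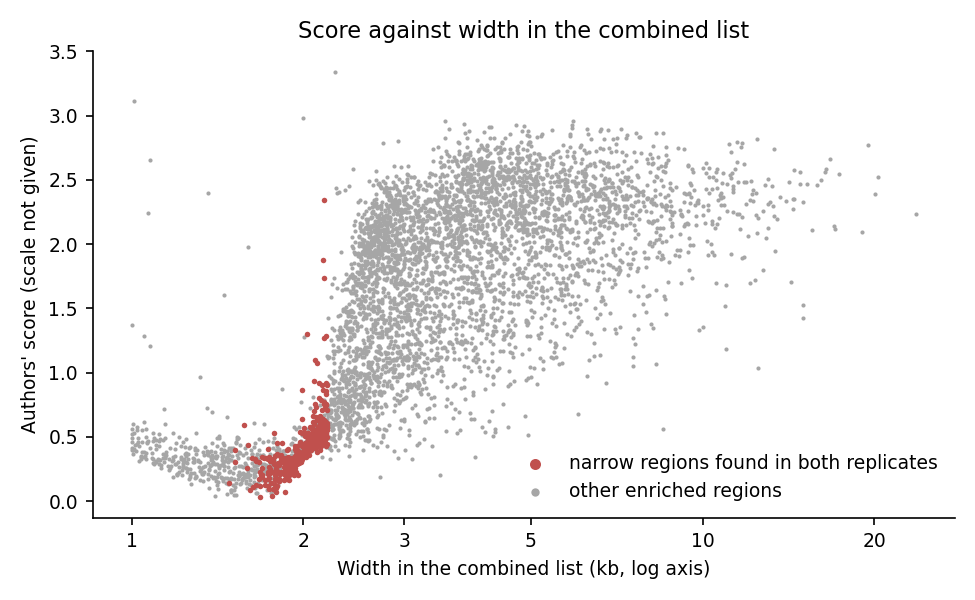
Authors' score (y axis, scale not given) against width in the combined list (x axis, kb on a log axis) for the 385 narrow regions found in both replicates (red) and the 4594 other enriched regions (grey). The narrow regions form the lower end of a steep band, with a median score of 0.40 against 1.88 for the other regions, and a few red points stand above it.

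The highest scores among narrow regions lay mostly outside the assembled arms. Of 8 narrow regions with a combined score above 1, 6 were on Het sequences or on U, the collection of unplaced sequence, which together held 16 of the 385. The highest score among narrow regions, 2.35 at percentile 81.2 of all enriched regions, belonged to the region on U at 7869402 to 7871572. Its width was 2171 bp there, 1806 bp in replicate 1 and 2006 bp in replicate 2, and its replicate scores were 1.88 and 2.53. The next on U, at 8926934 to 8929100, scored 1.88 in the combined list (percentile 53.8), 2.34 in replicate 1 and 1.67 in replicate 2. A further region on U at 9618775 to 9620946 scored 1.73, with 1.49 and 2.00 in the replicates. The regions on U at 9710825 to 9712856 and at 8964692 to 8966883 scored 1.30 and 1.29. Apart from the 2 highest, all of the 8 scored below the median of 1.78 over all enriched regions. The order of these 5 regions on U differed between the replicates, so their ranking did not hold beyond the spread between the 2 lists.

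The remaining 5 of the 10 highest-scored narrow regions stood in the lower part of the range of all enriched regions. The region on 2L at 8739373 to 8741547 scored 1.27 in the combined list (percentile 33.7), 1.33 in replicate 1 and 1.23 in replicate 2, and was 2146 and 2134 bp wide there. On X, a neighbouring pair of narrow regions separated by 4404 bp stood at 13071248 to 13073343 (1.10) and 13077748 to 13079830 (0.93). Their scores were 1.28 and 1.22 in replicate 1 and 0.96 and 0.87 in replicate 2. On YHet, a similar pair lay at 319879 to 321993 (1.07) and 312599 to 314728 (0.92), 5150 bp apart. Its scores were 1.53 and 1.20 in replicate 1 and 0.82 and 0.95 in replicate 2, so that both pairs scored higher in replicate 1.

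At the other end, the lowest combined score of any enriched region, 0.03, belonged to a narrow region on 3R at 22492 to 24167. Its width was 1695 bp in replicate 1 and 1420 bp in replicate 2, and its score was 0.15 in each. On 3L, low scores of 0.04, 0.07 and 0.09 were found at 18453065 to 18454824, 15109131 to 15110985 and 160422 to 162036. The remaining one of the 5 lowest, on 3R at 20095720 to 20097510, had 0.07. In 4 of these 5 the region was wider in replicate 1, and all 5 scored higher in both replicates than in the combined list.

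The narrowest regions were not those with the lowest scores. The narrowest of all lay on 2L at 20884771 to 20886253, with a combined width of 1483 bp, replicate widths of 1342 and 1315 bp, and a combined score of 0.14. The region on 3R at 5326967 to 5328484 (1518 bp) scored 0.40, and those on 2R at 19568922 to 19570441 (1520 bp) and 14427237 to 14428828 (1592 bp) scored 0.30 and 0.25. The region on U at 7459336 to 7460909 (1574 bp) was 1480 and 1484 bp wide in the replicates and scored 0.59, with replicate scores of 1.02 and 0.87. None of these 5 was among the 5 lowest by score, and their widths differed between the replicates by 4 to 83 bp.

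The edges of a narrow region differed between the replicates by more base pairs than those of wider regions did in the median. The starts differed by a median of 70 bp (interquartile range 29 to 128 bp, highest 650 bp), the ends by 66 bp (29 to 133 bp, highest 587 bp) and the centres by 45 bp (22 to 88 bp, highest 323.5 bp). Starts were within 100 bp of each other in 251 of 385 cases (65.2%), ends in 246 (63.9%) and centres in 311 (80.8%). Of the bases covered in either replicate, a median of 91.8% were covered in both, and the lowest value for any narrow region was 59.3%. For the wider regions described next, divided into 5 classes of width, the median difference was 31 to 64.5 bp for starts and 27 to 61 bp for ends, and the median share of bases covered in both was 96.2 to 98.0%.

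Set against wider regions chosen in the same way, narrow regions repeated less closely in width. Regions found in both replicates and at least 500 bp from a neighbour were divided by combined width, and those matched by 1 region in each replicate were compared. The width differed between replicates by a median of 8.13% for the 64 narrow regions below 1800 bp and by 6.38% for the 321 from 1800 bp up to the bound. For wider regions it was 2.34% at 2200 to 2600 bp (539 regions), 2.25% at 2600 to 3000 bp (652 regions) and 2.90% at 3000 to 4000 bp (874 regions). It was 2.20% at 4000 to 7000 bp (1048 regions) and 1.49% at 7000 bp or more (254 regions). In base pairs, the median difference was 124.5 and 120 bp in the 2 narrow classes. In the wider classes it was 55, 60.5, 96, 103 and 126 bp, in order of width. The difference in score was of similar size in all these classes, with medians from 0.07 to 0.10, while the median score was 0.23 and 0.43 in the narrow classes and 1.01 at 2200 to 2600 bp. Spearman's rho between the replicates over the narrow regions was 0.67 for score and 0.61 for width, against 0.97 and 0.96 over 4090 other regions found in both, which cover a far wider range of both measures. Within the narrow classes rho for width was -0.32 below 1800 bp and 0.49 above, and rho for score was 0.75 and 0.62. In the class of 2200 to 2600 bp rho was 0.71 for width and 0.93 for score. Scores spread more in that class, with quartiles of 0.74 and 1.58, against 0.34 and 0.53 from 1800 bp to the bound. The classes were cut on combined width, which belongs to both replicates, and this cut can itself lower rho for width. No test was made of these differences, because the classes were set by width.

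**Figure D3:**
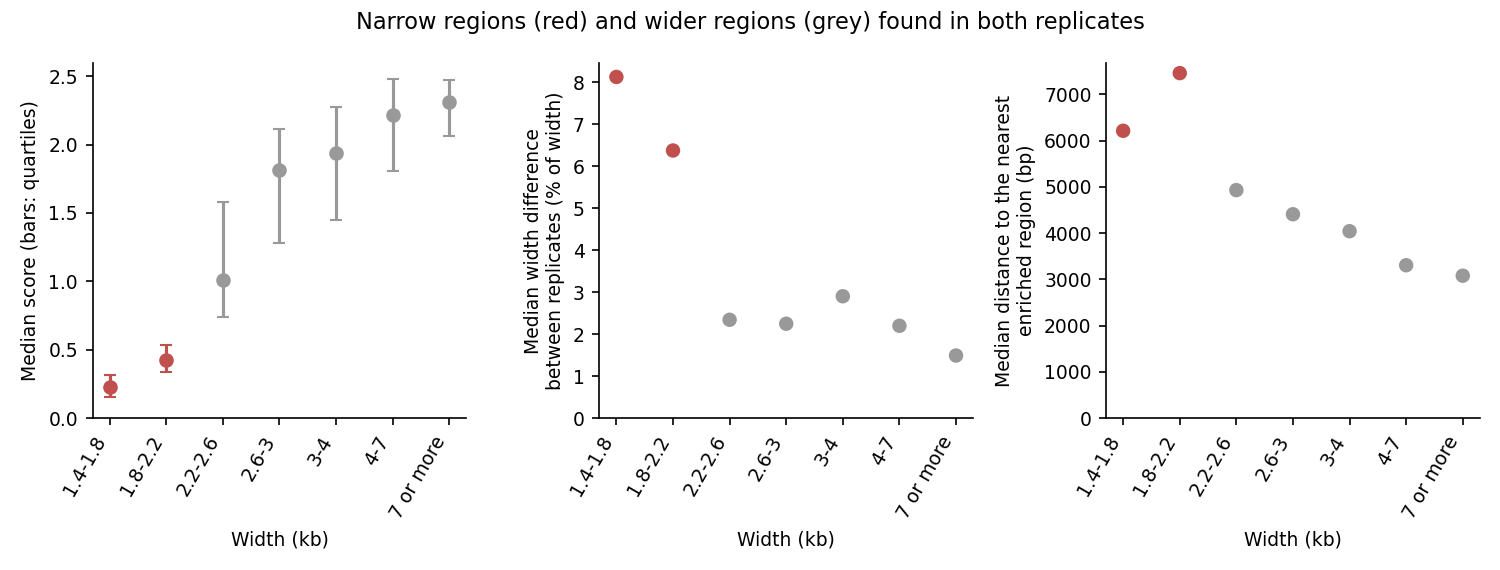
Median score with quartiles (left), median width difference between replicates in % of the width (middle) and median distance to the nearest enriched region in bp (right) by combined width in kb, for narrow (red) and wider (grey) regions found in both replicates and at least 500 bp from a neighbour. Scores are lowest, and width differences (8.13 and 6.38%) and distances (6212.5 and 7459 bp) highest, in the 2 narrow classes.

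Narrow regions were about as often the wider in replicate 1 as in replicate 2. The median width difference, replicate 1 minus replicate 2, was 11 bp (interquartile range -115 to 124 bp), and 203 of 385 narrow regions were wider in replicate 1 (52.7%, exact 95% interval 47.6 to 57.8%). Among all 4296 enriched regions matched by 1 region in each replicate, 52.6% were wider in replicate 1, so the share among narrow regions was near the background. Scores were higher in replicate 1 for 246 narrow regions (63.9%), against a background of 62.8%, which was also near.

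By sequence, the share wider in replicate 1 was below 50% on X and above it on the Het sequences and U. Of 49 narrow X regions, 20 were wider in replicate 1 (40.8%, 27.0 to 55.8%), and 31.7% of all 700 matched X regions were. On the 4 large autosomal arms (2L, 2R, 3L and 3R) 167 of 316 narrow regions were wider in replicate 1 (52.8%, 47.2 to 58.5%), and 56.1% of all 3466 matched regions were. On the Het sequences and U it was 13 of 16 narrow regions (81.3%, 54.4 to 96.0%), and 69.3% of all 75 matched regions. The interval on X included 50%, as did that of the large autosomal arms. The median difference was -44 bp for narrow X regions and 11 bp for those of the large autosomal arms, and the exact intervals of these 2 shares overlapped. Median widths of the narrow X regions were 1812 bp (replicate 1) and 1872 bp (replicate 2), and those of the large autosomal arms 1867 and 1853 bp.

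Single regions could differ far more between the replicates than the medians show. The largest difference was on 2L at 5739072 to 5741216, where replicate 1 had a region of 1303 bp and replicate 2 had 2198 bp. The region on U at 9618775 to 9620946 measured 2108 bp in replicate 1 but 1455 bp in replicate 2, although its score was higher in replicate 2. On 3R at 20454494 to 20456672 the widths were 2673 and 2033 bp, on 3R at 7637236 to 7639234 they were 1388 and 1996 bp, and on 3L at 22990960 to 22992826 they were 1935 and 1340 bp. In 4 of these 5 the replicate with the wider region also had the higher score, the region on U being the exception. The same count was not made over all narrow or all matched regions, so it has no background here.

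**Figure D4:**
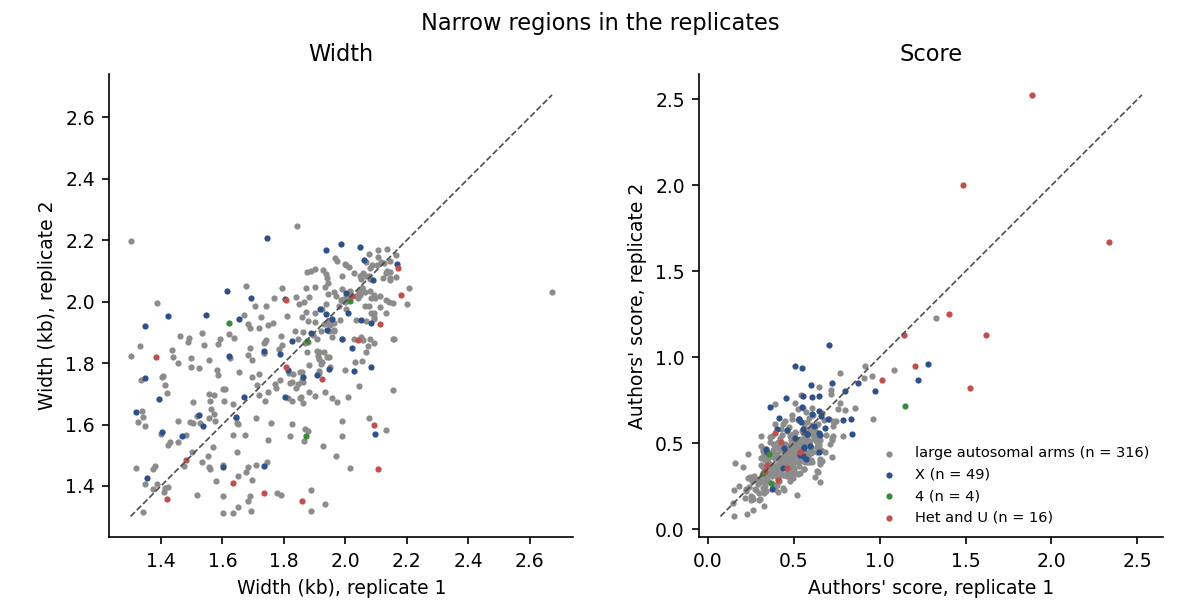
Width in kb (left) and authors' score (right) of each narrow region in replicate 1 (x axis) and replicate 2 (y axis), coloured by sequence group, with the dashed line marking equal values. Spearman's rho is 0.67 for scores and 0.61 for widths, and the highest scores belong to Het and U regions.

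The same choice made in the replicates' own lists found more regions. In replicate 1, 514 regions were below 2200 bp, overlapped replicate 2 and lay at least 500 bp from another region, and 382 of them (74.3%) fell in the 385 narrow combined regions. In replicate 2, 533 regions did so and 383 (71.9%) fell there. Nearly all the rest, 121 in replicate 1 and 139 in replicate 2, lay in combined regions above the bound, with median combined widths of 2304 and 2306 bp.

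Narrow regions made up a similar share of enriched regions on the 4 large autosomal arms and a smaller one on X. The share was 8.60% on 2L (74 of 860, exact 95% interval 6.82 to 10.7%), 8.42% on 3L (79 of 938, 6.72 to 10.4%), 7.92% on 2R (79 of 998, 6.32 to 9.77%) and 7.45% on 3R (84 of 1128, 5.98 to 9.14%), and all 4 intervals overlapped. On X it was 5.51% (49 of 890, 4.10 to 7.21%), and the large autosomal arms together had 8.05% (316 of 3924, 7.22 to 8.95%). The interval of X overlapped that of each single arm, and ended just below that of the arms together. The difference of -2.55 percentage points was -0.78 without replicate 1, when only overlap with replicate 2 was asked for, and -2.15 without replicate 2. Per Mb of sequence there were 2.19 narrow regions on X and 3.27 on the large autosomal arms. These intervals cover counting error over regions only.

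X did not have fewer regions below 2200 bp as such. Regions below this width made up 19.9% of X regions (177 of 890, 17.3 to 22.7%) and 17.1% of those on the large autosomal arms (670 of 3924, 15.9 to 18.3%). Of the 177 on X, 49 met all criteria (27.7%, 21.2 to 34.9%), 22 were found in replicate 1 only, 37 in replicate 2 only and 61 in neither, and 8 were in both but close to a neighbour. Of the 670 on the large autosomal arms, 316 met all criteria (47.2%, 43.3 to 51.0%), 79 were found in replicate 1 only, 72 in replicate 2 only and 183 in neither, and 20 were in both but close to a neighbour. The median combined score of the narrow regions was 0.53 on X and 0.38 on the large autosomal arms.

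On the small chromosome 4, 4 of 74 enriched regions were narrow and met all criteria (5.41%, 1.49 to 13.3%), and 18 of 74 were below 2200 bp. U held 10 of 34 (29.4%, 15.1 to 47.5%), YHet 2 of 5, and the Het sequences of the autosomes 4 of 47 (8.51%, 2.37 to 20.4%), all 4 of them on 2RHet. XHet had 0 of 5, an interval that reached up to 52.2%. Narrow regions on U had a median combined score of 1.07, with replicate medians of 1.27 and 1.13, against 0.38 in the combined list on the large autosomal arms. The length of each sequence to which reads could be aligned is not known here, and its part in these shares and scores was not tested.

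**Figure D5:**
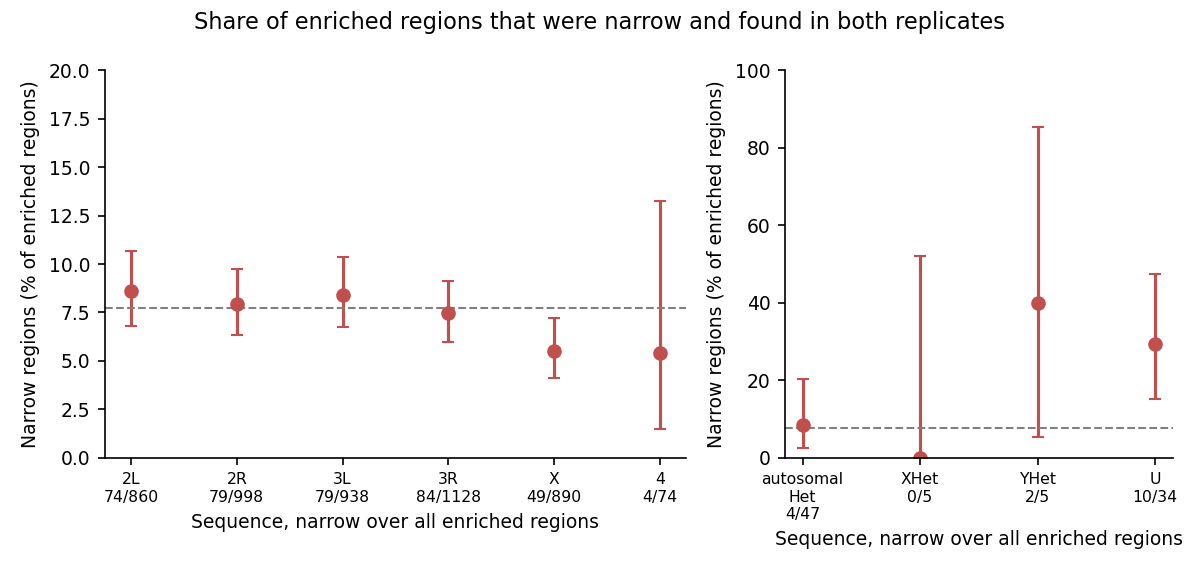
Share of enriched regions that were narrow and found in both replicates (y axis, %) by sequence, with exact 95% intervals as bars, the counts under each name and the share over all sequences, 7.73%, as a dashed line. The panels have different y axes. X lies at 5.51% and U at 29.4%, while the 4 large autosomal arms lie between 7.45 and 8.60%.

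Narrow regions stood well apart from other enriched regions, beyond what the choice required. The median distance to the nearest enriched region was 7062 bp in the combined list (interquartile range 2918 to 16513 bp), and 8018 and 7849 bp in the lists of replicates 1 and 2. Wider regions held to the same criteria of overlap and distance, 3493 in all, had a median of 3856 bp (1737 to 9726 bp). Regions below 2200 bp that were found in 1 replicate or in neither, with no bound on distance, had medians of 3666 and 3711.5 bp. Those regions were also narrower, with median widths of 1641 and 1293 bp against 2004 bp. Their distances therefore do not compare like regions with the narrow ones. Of the 385 narrow regions 21 had a neighbour within 1000 bp, and 79 had none within 20000 bp. Within the narrow regions Spearman's rho was 0.0044 between distance and score and -0.0093 between distance and width, and Pearson's r was 0.28 and -0.0055.

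The neighbours of narrow regions were themselves somewhat narrower and weaker. For narrow regions the nearest enriched region had medians of 2930 bp in width and 1.59 in score, against 3324 bp and 1.92 where wider regions were held to the same criteria. It was another narrow region found in both replicates in 50 of 385 cases (13.0%), against 252 of 3493 (7.21%). These figures were not tested.

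The most distant narrow regions lay on U, at 7869402 to 7871572, 4925088 to 4927078 and 5770914 to 5772695, with 281874, 255854 and 227562 bp to the nearest enriched region of that sequence. Since U joins unplaced pieces, distances on it need not be distances along a chromosome. On the assembled arms the most distant was on X at 7338894 to 7340960, with 119108 bp to the nearest enriched region, widths of 1786 and 1830 bp in the replicates and a combined score of 0.57. The next among the 5 most distant lay on 2RHet at 566520 to 568316 (93859 bp, score 0.24).

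Narrow regions occurred along all major arms. Of 244 bins of 500 kb or less on 2L, 2R, 3L, 3R, 4 and X, 69 held none, 71 held 1, 45 held 2, and 2 held 6, the most of any bin. These were on 3L at 18000001 to 18500000, where 6 of 9 enriched regions met all criteria, and on 3R at 1000001 to 1500000, with 6 of 41. Among the 7 bins with 5, the one with the fewest enriched regions was on 3L at 2000001 to 2500000 (5 of 14). Most narrow regions, 307 of 385, had no other narrow region found in both replicates as the next on either side. There were 30 runs of 2 in a row and 4 runs of 3.

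The longest run held 6 narrow regions in a row on 3L from 18177530 to 18496103, over 319 kb with no wider enriched region among them. Their combined scores were 0.13, 0.29, 0.23, 0.39, 0.04 and 0.45 along the arm, and their combined widths were 1713, 1933, 1826, 2022, 1760 and 2182 bp. In replicate 1 the scores were 0.15, 0.48, 0.34, 0.51, 0.23 and 0.57, and in replicate 2 they were 0.23, 0.28, 0.35, 0.43, 0.09 and 0.54. The last region of the run had the highest score in every list, and the region at 18453065 had the lowest in replicate 2 and in the combined list. The distances between neighbours along the run ranged from 19530 to 116808 bp. The runs of 3 lay on 2L at 3529068 to 3632582, on 3L at 145720 to 162036 and at 2387484 to 2430300, and on X at 18585112 to 18668452.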

How the data were processed

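The deposited data are 3 lists of enriched regions, 1 per ChIP replicate and 1 for the replicates as a set. The authors gave every region its start and end and a score of their own. Coordinates are in FlyBase release 5, per the file headers, and Bowtie 0.12.7 was the aligner named per the submitters' processing notes. Not given in the sources used here are the region caller, its threshold, the scale of the score and how replicates were combined, all of which can affect which regions are found and how wide they are. Inputs served as controls for the replicate lists, per the labels. The 2 depleted regions of the combined list were left out.

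Each combined region was matched to the region of a replicate sharing the most bases. Differences between replicates were taken over regions matched by exactly 1 region in each, and distances are the bases between regions. Shares have exact (Clopper-Pearson) 95% intervals. No p-value was computed, since the criteria used the measured values and regions are not replicates. The members, lists and comparisons were chosen with earlier results of these data known. Regions named are the 10 highest and 5 lowest by score, the 5 narrowest, the 5 most distant, the 5 with the largest difference in width, 3 on each side of each bound, the 5 highest-scored off the large arms and X, the 3 fullest bins (ties to the bin with the fewest enriched regions) and the longest runs. The planned description of base composition and motifs was not run and no sequence is shown, because no release 5 genome was used here. The matching was tested on simulated data. Computation used numpy 2.4.6, scipy 1.17.1, pandas 2.3.3 and matplotlib 3.10.9 under Python 3.11.15.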

Additional observations from a re-analysis of the deposited data

How the results depend on the processing

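Each of 6 results was recomputed under up to 8 alternatives, which gave 45 values, and 33 stayed within the spread used for comparison (1.5 times for a count, 1 SD between replicates for median width and score, a 95% binomial interval for the others). For the difference in share between X and the large autosomal arms that interval, -3.95 to -0.84, held the counting error of X only. A width bound of 2000 bp left 185 narrow regions in place of 385, with medians over the replicates of 1667 bp in width and 0.39 in score, as follows from the full classes just below 2200 bp. Among the 50% of enriched regions with the highest scores only 2 narrow regions were left, both on U, with medians of 2004 bp in width and 2.10 in score, a median width difference of -19 bp and a median distance of 149527 bp, and the difference in share between X and the large autosomal arms was 0. Asking for overlap with 1 replicate only gave 480 to 482 regions, median widths of 1798 to 1813 bp and a difference in share between X and the large autosomal arms of -2.15 to -0.78 percentage points, the smaller difference without replicate 1; the cause was not tested. A reciprocal overlap of 50% chose the same number of regions, 385, and the changes of distance kept all 6 results within their spread. So did the restriction to 2L, 2R, 3L, 3R, 4 and X for the 5 results computed under it, which leave out the share on X against the large autosomal arms. No paired analysis was possible because the input samples have no lists and no result comes from a test. The unknown depth means that the absence of a region from a list cannot be read as absence of the mark.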

Other observations

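Regions below 2200 bp that did not meet the criteria had scores of the same order as the narrow regions found in both replicates. Over widths from 1600 to below 2200 bp the median combined score was 0.41 for the 380 narrow regions found in both and apart from others, 0.44 for 28 found in both but closer than 500 bp to a neighbour, 0.33 for 123 found in 1 replicate and 0.32 for 35 found in neither. Their median widths were 2006.5, 2057, 1785 and 1713 bp, so these medians do not compare regions of equal width. Within classes of width, the median score of regions that met all criteria was 0.22 from 1600 to below 1800 bp, against 0.28 for those that did not. It was 0.31 against 0.36 from 1800 to below 2000 bp, and 0.50 against 0.48 from 2000 to below 2200 bp. The share of regions that met all criteria was 0% below 1400 bp, 3.70% from 1400 to below 1600 bp, 39.6% from 1600 to below 1800 bp, 67.6% from 1800 to below 2000 bp and 84.0% from 2000 to below 2200 bp. The replicate lists held no region as narrow as the narrowest combined ones. Their narrowest regions were 1301 bp in replicate 1 and 1302 bp in replicate 2, against 1001 bp in the combined list. The part of this limit in the shares was not tested.

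The relation of score to width turned round among the narrowest regions of the combined list. The median score over all enriched regions was 0.41 from 1000 to below 1200 bp, 0.30 from 1200 to below 1400 bp, 0.27 from 1400 to below 1600 bp, 0.25 from 1600 to below 1800 bp, 0.32 from 1800 to below 2000 bp and 0.50 from 2000 to below 2200 bp. The classes below 1400 bp held 195 regions, none of them found in both replicates and apart from others, and the highest score among regions below 2200 bp found in neither replicate was 3.12.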
